A study of Mus musculus with 6 samples.

Results

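The mouse expression array used here carries probes that are named by a stretch of genome instead of a gene. They are described on the array as genomic intervals, each a chromosome, a start, an end and a strand mark (F or R), on the mouse build mm9. Of 55681 probes, 16181 were of this kind and were taken as long non-coding RNA probes. They fell in 4607 named intervals, which merged into 3362 loci when intervals that overlap on the same strand were joined. A further 13 probes with an interval but no strand mark were left out. Whether each interval lies outside genes was not checked against an mm9 annotation, so they are called interval probes, and the genes next to them were not analysed here.

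RNA came from cultured primary keratinocytes, the cells that build the epidermis, which were isolated from the skin of newborn mice. The floxed line behind these mice had a mixed 129SvEx:C57BL/6 background and was crossed with FVB/N mice that carried *Krt14-Cre*. Knockout cells lacked *Sox4* (Sox4 cKO), *Sox11* (Sox11 cKO) or both (dcKO, labelled Sox4/11 dcKO), and each of 6 arrays set knockout RNA against wild-type control RNA, with 2 arrays per genotype and the dyes swapped between them. The floxed alleles were removed by *Krt14-Cre*, which acts in keratin 14 expressing cells and was brought in from FVB/N mice. The floxed parents also carried a *Sox12* null allele, and the sources do not say whether the cultured cells, knockout or wild type, kept it. The cells had been grown on J2 fibroblast feeders for 3 passages and off feeders for at least 2 passages. No source states if each array had its own wild-type culture or if arrays shared one, so p-values measure the spread between these arrays, which may be technical in part.

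Long non-coding RNAs are transcribed like mRNAs but are not known to be translated. Many are spliced, many are made at low level and in few tissues, and some lie antisense to a gene or to one another. Some act in the nucleus on the transcription of neighbouring genes, some host small nucleolar RNAs in their introns, and for most no role is known. SOX4 and SOX11 are transcription factors of the SoxC family that are expressed in embryonic epidermis and in progenitor cells.

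The targeted genes were checked first. *Sox4* (probe A_55_P2121613) gave log2 ratios of knockout over wild type of -2.49 and -2.54 on the Sox4 cKO arrays and -2.23 and -2.81 on the dcKO arrays. *Sox11* (probe A_55_P2094721) gave -3.31 and -2.65 on the Sox11 cKO arrays and -3.07 and -3.79 on the dcKO arrays. All 8 keratinocyte marker genes were well above background in both channels of every genotype, and at most 1 of 8 fibroblast markers was. In each channel of every genotype 4 of 6 immune and 2 of 3 endothelial markers were as well. For the 7 melanocyte markers the number ran from 2 to 4. None of the 5 marker lists (keratinocyte, fibroblast, melanocyte, immune, endothelial) had a called member in any genotype. The summed level of the 8 fibroblast markers lay between 241 and 272 on the wild-type side and between 253 and 301 on the knockout side, in normalised intensity units. The *Sox12* probe was above background on no array.

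An interval probe was counted as detected in a genotype when Feature Extraction marked it well above background in at least 1 channel on both arrays. That held for 3173 interval probes in Sox4 cKO (19.6%), 3331 in Sox11 cKO (20.6%) and 3333 in dcKO (20.6%). Among probes for RefSeq mRNAs, 56.4% to 57.4% passed the same rule, and among RefSeq non-coding RNA probes, 22.3% to 23.9% did. Over the interval probes, 2765 were detected in all 3 genotypes, 472 in 2 genotypes, 598 in 1 genotype and 12346 in none. At the level of loci, 1488 of 3362 had a detected probe in Sox4 cKO, 1590 in Sox11 cKO and 1548 in dcKO, and 1729 had one in any genotype.

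Detection was patchy within loci. A locus held a median of 4 probes (range 1 to 34) and spanned a median of 13966 bases. Of the 1365 loci with 3 or more probes and a detected probe in dcKO, 664 (48.6%) had a single detected probe, and in 80 (5.86%) all probes were detected. The same shares were 49.7% and 5.56% in Sox4 cKO and 50% and 4.73% in Sox11 cKO. Probes were also split by the span of their own named interval into 4 groups of similar probe number. In dcKO, 18% of probes in the shortest group and 20.9% to 21.9% in the other groups were detected. By chromosome, the detected share in dcKO ran from 14.0% on chromosome 9 to 28.6% on chromosome 19.

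**Figure D1:**
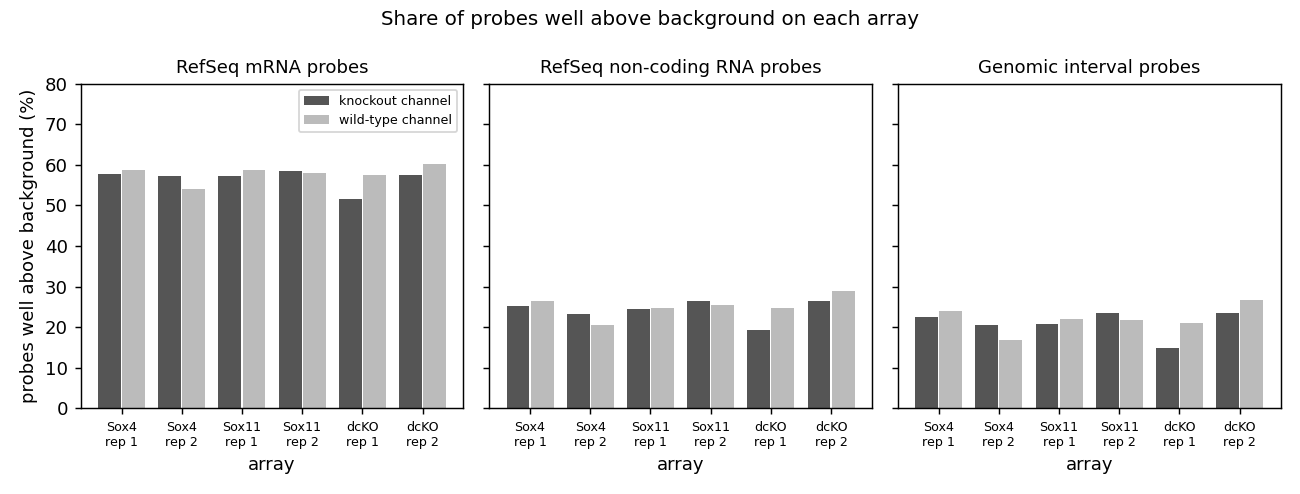
Share of probes well above background (percent, vertical axis) in the knockout and wild-type channel of each array, for RefSeq mRNA, RefSeq non-coding RNA and genomic interval probes. Interval probes lie between 14.8% and 26.6%, mRNA probes between 51.5% and 60.2%, and the lowest bar of each panel is the knockout channel of dcKO replicate 1.

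The channels differed in how much they showed. The knockout channel of dcKO replicate 1 had 14.8% of interval probes above background against 21.1% in the wild-type channel of the same array, and RefSeq mRNA probes moved with it, at 51.5% against 57.4%. In dcKO, 186 interval probes were above background on both arrays in the wild-type channel and on neither in the knockout channel, and 18 the other way round. Matching counts over all probes are not given here, so this split cannot be read as particular to interval probes. On Sox4 cKO replicate 2 the wild-type channel was the lower one, at 16.9% against 20.6%. The part of these differences in the ratios below was not tested.

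Interval probes were called changed when the limma adjusted p (Benjamini-Hochberg, over all 55681 probes) was below 0.05 and the log2 ratio exceeded 1.5 in size. In Sox4 cKO, 8 interval probes were called higher and 0 lower, against a background of 0.142% of all probes called (0.0413% higher and 0.101% lower). In Sox11 cKO, 1 was called higher and 0 lower, against 0.0862% of all probes (0.018% higher and 0.0682% lower). In dcKO, 30 were called higher and 2 lower, against 0.756% of all probes (0.312% higher and 0.444% lower). By share, 0.0494%, 0.00618% and 0.198% of interval probes were called in the 3 genotypes, and each share was below that of all probes. The higher calls in dcKO made up 93.8% of the interval calls and 41.3% of all calls. Median centring in place of loess turned that split to 18 higher and 9 lower among interval probes, and to 121 higher and 599 lower among all probes.

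Of 16181 interval probes, 644 in Sox4 cKO, 430 in Sox11 cKO and 875 in dcKO had an unadjusted limma p below 0.05. Where nothing changes, a share of 0.05 of probes is expected to pass, counting both directions. Of 26732 RefSeq mRNA probes, 2734, 2792 and 5271 passed in the 3 genotypes. At the adjusted p threshold alone, 9 interval probes passed in Sox4 cKO, all higher, and 4 in Sox11 cKO, all higher. In dcKO 84 passed, 73 higher and 11 lower. Of the RefSeq mRNA probes, 57, 59 and 925 passed that threshold. The called probes were not independent of one another: the 32 in dcKO lay in 15 loci, the 8 in Sox4 cKO in 2 loci, and the 1 in Sox11 cKO in 1 of these same loci. The 15 dcKO loci lay on 10 chromosomes, 10 on strand F and 5 on strand R, and spanned 613 to 275351 bases. They held 138 probes, of which 70 were detected in dcKO.

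The counts changed when single arrays were left out and when a larger offset was used, and so did the counts over all probes. Without dcKO replicate 1, 12 interval probes were called in dcKO, 8 of them among the 32, and without dcKO replicate 2, 6 were, 5 of them among the 32. Only the loci chr5:137392195-137426421 on strand F and chr6:31017987-31293337 on strand F kept a call of these 32 under both. In Sox4 cKO, 0 were called without either of its own arrays and 14 without either Sox11 cKO array. In Sox11 cKO, more interval probes were called whichever array of any genotype was left out, most without its own replicate 1. The count of calls over all probes rose in each of these settings as well. An offset of 50 added to the intensities in place of 16 left 8 calls in dcKO, in the same pair of loci, and 0 in Sox4 cKO and Sox11 cKO.

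**Figure D2:**
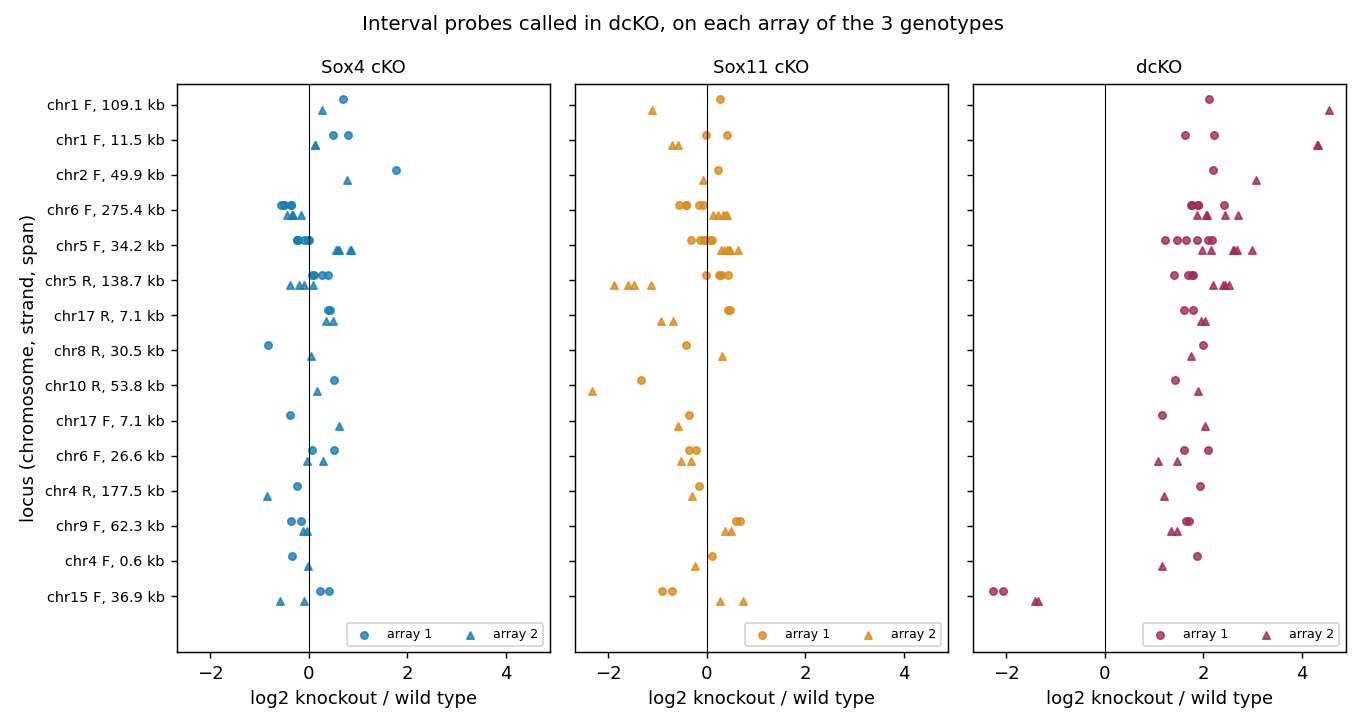
Log2 ratio of knockout over wild type (horizontal axis) of the 32 interval probes called in dcKO, by locus (vertical axis: chromosome, strand, span), on array 1 (circles) and array 2 (triangles) of each genotype. In dcKO the points of 14 loci lie right of 0 and those of 1 locus left of 0 on both arrays, while in the single knockouts the same probes spread over both sides of 0. Probes are shown in the single knockouts whether or not they were detected there.

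In Sox4 cKO the calls were concentrated in chr15:32167516-32174427 on strand R, where 8 of 10 probes were detected and 6 were called. Over the 8 detected probes, the log2 ratios ran from 0.96 to 2.97 on array 1 (median 2.02) and from 1.42 to 2.71 on array 2 (median 1.96). Every detected probe was above 0 on both arrays. The highest probe (A_30_P01033043) had ratios of 2.97 and 2.61, a log2 fold change of 2.79 ± 0.18 (SE, n = 2 arrays; limma adjusted p = 0.00395). Its knockout RNA was well above background on both arrays and its wild-type RNA on neither. The fold is therefore given as at least 6.78-fold higher. Here and below, such a fold takes the wild type at its own level or the dimmest signal well above background, whichever was higher. Where its own level was higher on both arrays, this is the fitted fold itself and not a lower limit. The log2 fold change of this probe was 1.85 with an offset of 50 and 5.69 with Feature Extraction's processed signals. For the other called probes of the locus the fold given in this way ran from 3.65-fold to 5.91-fold.

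The same locus held the only interval call in Sox11 cKO. Probe A_30_P01033043 had ratios of 1.94 and 1.64 there, a log2 fold change of 1.79 (limma adjusted p = 0.0253, at least 3.27-fold higher). The 5 probes detected in Sox11 cKO had log2 ratios from 0.70 to 1.94 on array 1 and from 0.86 to 1.65 on array 2, and 3 of them passed the adjusted p threshold. In dcKO, 8 probes were detected and all 8 passed that threshold (adjusted p from 0.011 to 0.0343), but with log2 fold changes of 1.15 to 1.27 none reached the fold required for a call.

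The level behind these ratios was not the same on all arrays. The wild-type level (log2 of normalised intensity, median over the probes detected in that genotype) was 5.05 and 4.83 on the Sox4 cKO arrays, 4.97 and 4.68 on the Sox11 cKO arrays and 7.53 and 7.56 on the dcKO arrays. All 8 detected probes were well above background in the wild-type channel of both dcKO arrays, and none was in that of both Sox4 cKO arrays. Knockout levels were 7.03 and 6.98 in Sox4 cKO, 6.25 and 6.24 in Sox11 cKO and 8.55 and 8.90 in dcKO. So the knockout exceeded its own wild type in each genotype, while the wild-type level beside dcKO was above the knockout levels of Sox4 cKO and Sox11 cKO.

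A RefSeq non-coding RNA was called in both single knockouts as well. *Snhg18*, a host gene of a small nucleolar RNA (probe A_52_P670812), had log2 ratios of 3.03 and 2.75 in Sox4 cKO, 1.51 and 1.63 in Sox11 cKO and 1.22 and 1.32 in dcKO. It was called in Sox4 cKO (2.89, limma adjusted p = 0.00268, at least 6.83-fold higher) and in Sox11 cKO (1.57, limma adjusted p = 0.0249, at least 2.96-fold higher). In dcKO its log2 fold change of 1.27 passed the adjusted p threshold (0.0106) and not the fold. Its wild-type RNA was above background on none of the Sox4 cKO and Sox11 cKO arrays, and whether the chr15 interval covers this gene was not settled. Its probe was one of a list of 32 long non-coding RNA genes with RefSeq names, of which 22 were on the array and 19 to 20 were detected per genotype. No other gene of that list was called in any genotype, including *Malat1*, a nuclear speckle RNA, *Neat1*, the scaffold of paraspeckles, and *Kcnq1ot1* and *Airn*, which act in genomic imprinting.

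The other locus called in Sox4 cKO was chr16:90038086-90127636 on strand F, where 2 of 7 probes were detected and both were called. Probe A_30_P01018297 had log2 ratios of 1.43 and 2.02 (fold change 1.73 ± 0.18, SE; limma adjusted p = 0.0311) and probe A_30_P01026840 had 1.34 and 1.77 (1.56 ± 0.15, SE; limma adjusted p = 0.0244). In Sox11 cKO the same probes had log2 fold changes of 0.95 and 1.26 and in dcKO 0.29 and 0.16, without a call. The wild-type level of the locus was 8.36 and 7.76 on the Sox4 cKO arrays and lay between 8.58 and 10.07 on the other 4 arrays. The knockout levels, 9.74 and 9.66, lay inside that range.

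In dcKO the locus with the most calls was chr5:137392195-137426421 on strand F, with 6 of its 7 detected probes called. Its ratios ran from 0.48 to 2.18 on array 1 (median 1.64) and from 1.41 to 3.00 on array 2 (median 2.61). The highest probe, A_30_P01023875, had ratios of 1.88 and 3.00, a log2 fold change of 2.44 ± 0.16 (SE; limma adjusted p = 0.00114). All 7 detected probes passed the adjusted p threshold. In Sox4 cKO and Sox11 cKO the median of 9 detected probes was 0.26 and 0.15, and none passed. The difference of A_30_P01023875 between dcKO and Sox4 cKO was 2.27 (limma adjusted p = 0.0115), and that between dcKO and Sox11 cKO was 2.29 (limma adjusted p = 0.0131).

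The levels behind these ratios were compared across arrays. The wild-type level of these 7 probes was 5.86 and 6.21 on the dcKO arrays and between 8.43 and 9.40 on the other 4 arrays, and the dcKO knockout level was 7.98 and 8.82. The wild-type level beside dcKO was thus below that of the other arrays, and the dcKO knockout level was below their wild-type range on array 1 and inside it on array 2.

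At chr6:31017987-31293337 on strand F, 5 of 9 detected probes were called in dcKO and 7 passed the adjusted p threshold. Ratios ran from 0.79 to 2.42 on array 1 (median 1.75) and from 0.26 to 2.70 on array 2 (median 1.87), all above 0. Probe A_30_P01031155 had 2.42 and 2.70, a log2 fold change of 2.56 ± 0.16 (SE; limma adjusted p = 0.00108). The same probe was at -0.57 and -0.34 in Sox4 cKO, a difference between dcKO and Sox4 cKO of 3.01 (limma adjusted p = 0.00529), and at -0.42 and 0.38 in Sox11 cKO, a difference of 2.58 (limma adjusted p = 0.0114). The wild-type level of the 9 probes was 6.41 and 6.15 on the dcKO arrays and between 7.27 and 7.65 on the others, and the knockout level in dcKO was 8.30 and 8.20. Here wild type was lower and knockout higher than the wild type of the other arrays.

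The third large locus, chr5:22801058-22939737 on strand R, had 4 of 9 detected probes called in dcKO. Its called probes had log2 ratios of 1.41 to 1.79 on array 1 and 2.19 to 2.51 on array 2, with log2 fold changes of 1.80 to 2.12 (limma adjusted p from 0.0272 to 0.0458). The wild-type level of 7.45 and 7.81 lay within the range of the other arrays, 7.29 to 8.17, and the knockout level was 9.08 and 10.25. Knockout RNA alone stood apart at this locus. Its called probes were at -0.38 to 0.39 in Sox4 cKO, and in Sox11 cKO at -0.02 to 0.44 on array 1 and at -1.88 to -1.14 on array 2, so the Sox11 cKO arrays did not overlap.

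**Figure D3:**
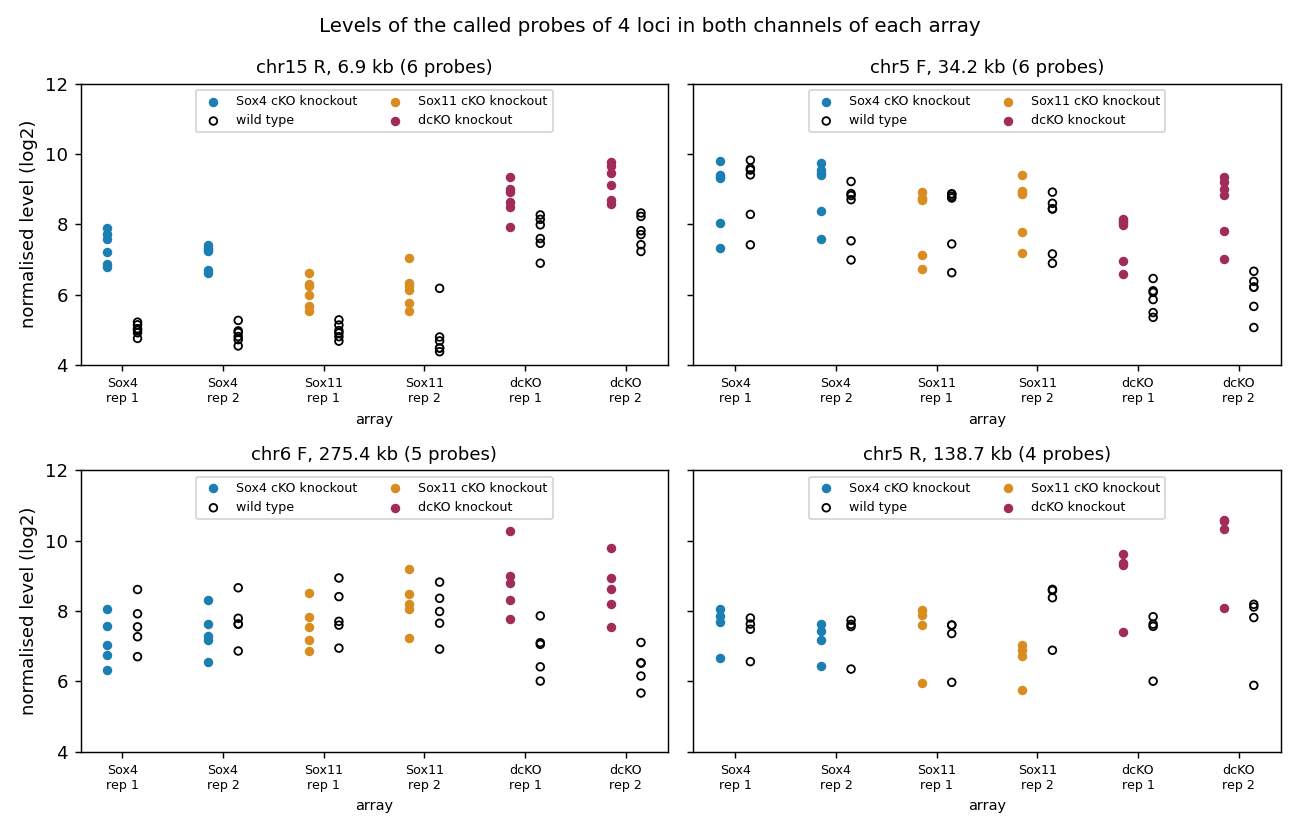
Normalised level (log2 intensity, vertical axis) of the called probes of 4 loci in the knockout channel (filled) and wild-type channel (open) of each array, 1 point per probe. Compared probe by probe, the open points of the dcKO arrays lie above those of the other arrays at the chr15 R locus and below them at the chr5 F and chr6 F loci, and at the chr5 R locus no probe shows either.

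Over all 32 called interval probes of dcKO, the wild-type mean of the dcKO arrays lay farther from the wild-type mean of the other arrays than the dcKO knockout mean did in 16. The same held for 8 of 8 called interval probes in Sox4 cKO and 1 of 1 in Sox11 cKO. Among all called probes it held for 139 of 421 in dcKO, 35 of 79 in Sox4 cKO and 21 of 48 in Sox11 cKO. Levels set across arrays rest on quantile normalisation of the array averages, whereas the ratios within an array do not.

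The largest log2 fold changes in dcKO were on chromosome 1. At chr1:87343550-87452625 on strand F, 1 of 13 probes was detected (A_30_P01027120), with ratios of 2.12 and 4.54 (3.33 ± 0.53, SE; limma adjusted p = 0.0278). At chr1:85117750-85129200 on strand F, 2 of 5 probes were detected, with ratios of 1.62 and 2.22 on array 1 and 4.31 and 4.32 on array 2. Their log2 fold changes were 2.96 and 3.27 (limma adjusted p = 0.0322 and 0.0207). Array 2 was higher than array 1 by over 2 log2 units for each of these 3 probes, and wild-type RNA was well above background on 1 of 2 dcKO arrays. In Sox4 cKO the 3 probes were at 0.12 to 0.79. In Sox11 cKO, where none of the 3 met the detection rule, they were at -1.12 to 0.41.

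Several other loci in dcKO had 2 or more detected probes, all on the higher side. At chr9:68349343-68411643 on strand F both detected probes were called, with ratios of 1.65 and 1.71 on array 1 and 1.34 and 1.46 on array 2 (log2 fold changes 1.52 and 1.56, limma adjusted p = 0.00787 and 0.00462). The median wild-type level of the locus was 9.69 and 9.66 on the dcKO arrays against 9.04 to 9.66 on the others, and the knockout level was 11.37 and 11.06. At chr6:40693617-40720167 on strand F all 5 detected probes passed the adjusted p threshold and 2 were called, and the median ratio was 1.35 on array 1 and 1.08 on array 2. Its wild-type level was 5.49 and 5.68 on the dcKO arrays against 6.48 to 8.51 on the others, and the knockout level, 6.80 and 6.65, lay inside that range. At chr4:56480568-56658018 on strand R all 5 detected probes passed as well and 1 was called (A_30_P01022913, ratios 1.93 and 1.21, log2 fold change 1.57, limma adjusted p = 0.0066). The median wild-type level of the locus was 6.03 and 6.64 against 6.65 to 7.98, with the knockout at 7.11 and 8.08. At chr8:71495043-71525582 on strand R both probes passed, with log2 fold changes of 1.88, which was called, and 1.44, which was not. The wild-type level was 5.82 and 5.90 against 6.37 to 7.31, and the knockout, at 7.48 and 7.56, was above that range.

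Calls at 3 further loci rested on 1 probe each. At chr4:63810346-63810958 on strand F, a locus of 613 bases, probe A_30_P01023027 had ratios of 1.87 and 1.16 and a log2 fold change of 1.51 (limma adjusted p = 0.0141). Wild-type RNA was above background on neither dcKO array, which gave at least 2.85-fold higher. At chr2:10237649-10287591 on strand F, probe A_30_P01020141 had 2.20 and 3.08 (limma adjusted p = 0.00753, at least 6.22-fold higher), while the other detected probe of the locus was at -0.41 and -0.12. At chr10:118385588-118439338 on strand R, 1 of 3 detected probes was called (A_30_P01025844, ratios 1.42 and 1.90, limma adjusted p = 0.0192), and that probe was at -1.33 and -2.33 in Sox11 cKO without a call there (limma adjusted p = 0.0615).

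One locus was called lower in dcKO. At chr15:77164450-77201325 on strand F all 5 probes were detected and all were below 0 on both arrays, from -2.27 to -0.38 on array 1 and from -1.42 to -0.29 on array 2. Probe A_30_P01026240 had -2.27 and -1.42, a log2 fold change of -1.85 ± 0.29 (SE; limma adjusted p = 0.0272), and probe A_30_P01019660 had -2.06 and -1.36 (log2 fold change -1.71, limma adjusted p = 0.0432). A total of 4 of the 5 probes passed the adjusted p threshold. The wild-type level, 9.21 and 8.51, overlapped that of the other arrays, 8.18 to 8.98, and the knockout level was lower, at 7.15 and 7.48. In Sox4 cKO and Sox11 cKO the locus median was -0.05 and -0.19.

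The probes nearest to the threshold in dcKO were A_30_P01023027 (1.51) and A_30_P01027858 (1.52) just inside, and A_30_P01020884 at chr4:56480568-56658018 (1.49) and A_30_P01026926 at chr8:71495043-71525582 (1.44) just outside. All 4 passed the adjusted p threshold, and the latter pair lie in loci that have a called probe.

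Differences between genotypes were also tested across all probes. For dcKO minus Sox4 cKO, 18 interval probes were called higher and 2 lower, against 0.562% of all probes (0.251% higher and 0.311% lower). For dcKO minus Sox11 cKO, 18 were called higher and 4 lower, against 0.449% of all probes (0.257% higher and 0.192% lower). Both contrasts hold the same dcKO arrays. Without the replicate block, which is the dye term of the model, 5 were called in each. Leaving out 1 array at a time moved the counts between 0 and 60 for Sox4 cKO and between 0 and 133 for Sox11 cKO, with the highest counts when a Sox11 cKO array was left out. Median centring gave 15 higher and 33 lower for dcKO minus Sox4 cKO. As shares of the 16181 interval probes, the 20 and 22 calls of the main fit were 0.124% for dcKO minus Sox4 cKO and 0.136% for dcKO minus Sox11 cKO.

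Probes of one locus were then compared with each other. In dcKO, 728 loci had 2 or more detected probes, and in 361 (49.6%) these all had the same sign. The figures were 316 of 690 (45.8%) in Sox4 cKO and 320 of 725 (44.1%) in Sox11 cKO. The median gap between the lowest and highest probe was 0.28, 0.24 and 0.21. The share of same-sign loci varied with the size of the locus median. Both come from the same probe values, so a median near 0 makes mixed signs likelier by construction. Of 538 dcKO loci with a median within 0.25 of 0, 207 (38.5%) had probes of the same sign. Of 18 dcKO loci with a median beyond 1, 15 (83.3%) did. For Sox4 cKO these counts were 222 of 576 and 5 of 6, and for Sox11 cKO 236 of 619 and 6 of 7. Among loci with exactly 2 detected probes, the share ran from 55.4% (dcKO) to 59.2% (Sox4 cKO). Between pairs of probes of one locus the correlation of log2 fold changes was 0.637 in dcKO (4519 pairs), 0.567 in Sox4 cKO (4291) and 0.626 in Sox11 cKO (4365), a description over pairs that share loci and arrays.

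**Figure D4:**
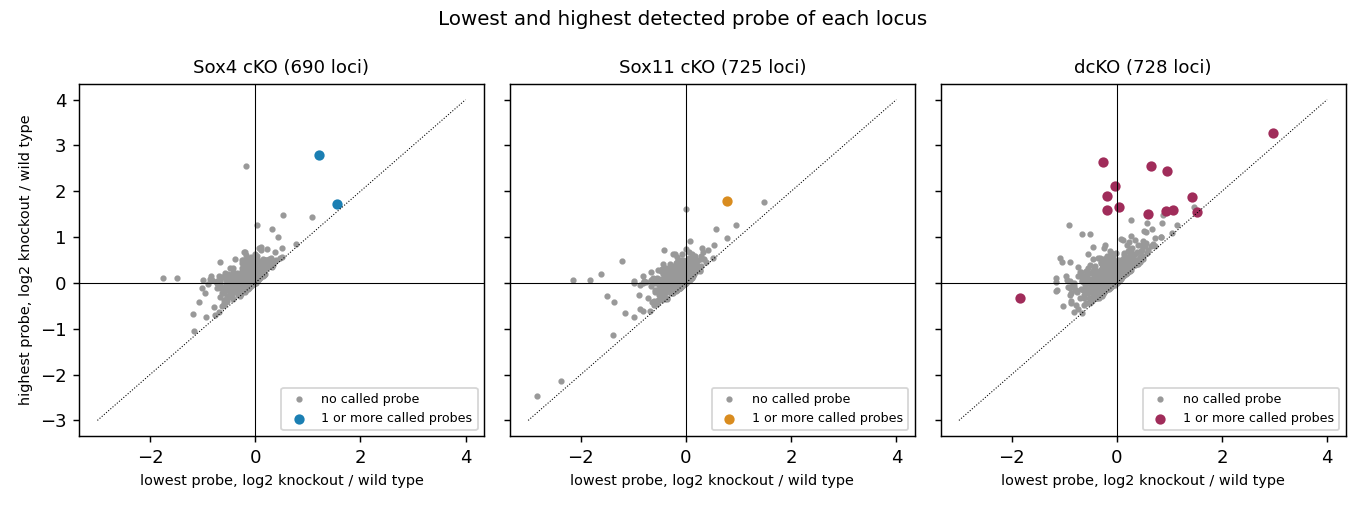
Lowest (horizontal axis) and highest (vertical axis) log2 ratio of knockout over wild type among the detected probes of each locus with 2 or more detected probes, by genotype. Loci near the dotted line have probes with equal values, loci in the upper left quadrant have probes on both sides of 0, and 10 of the 14 coloured dcKO loci lie outside that quadrant.

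The 2 arrays of a genotype were compared in the same way. The ratios compared here are those before the dye term of the model is taken off. A dye effect of a probe enters the 2 dye-swapped arrays with opposite sign, and its part in the values below was not tested. Across detected interval probes the log2 ratios of the 2 arrays correlated at 0.471 in dcKO (3331 probes), 0.117 in Sox4 cKO (3170) and -0.152 in Sox11 cKO (3327). Loci whose detected probes all stood on the same side of 0 on both arrays numbered 137 of 728 in dcKO, 74 of 690 in Sox4 cKO and 55 of 725 in Sox11 cKO. Probes beyond 1 on both arrays in the same direction numbered 58 in dcKO (52 higher and 6 lower), 18 in Sox4 cKO and 9 in Sox11 cKO, and 2, 0 and 4 were beyond 1 in opposite directions. These are counts of interval probes, and those over all probes are not given here.

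Loci with the most uniform probes were not all called. At chr4:88745770-88774130 on strand R all 3 probes were detected in every genotype and lay within 0.25 of each other in fold change. Their median ratios were 0.87 and 0.82 in Sox4 cKO, -0.36 and -4.22 in Sox11 cKO and 2.11 and 1.06 in dcKO, and none passed the adjusted p threshold. The Sox11 cKO arrays differed far more than the probes of the locus did. At chr9:78104935-78118850 on strand F, 3 detected probes had median ratios of -2.02 and -3.46 in Sox11 cKO (lowest limma adjusted p = 0.151) and -2.04 and -0.13 in Sox4 cKO. Its wild-type level was 7.64 and 7.19 on the dcKO arrays and between 10.31 and 11.27 on the other 4. At chr13:98221098-98480773 on strand F, 3 probes in Sox11 cKO had median ratios of 2.66 and 0.59 (lowest limma adjusted p = 0.0705), and its wild-type level on the dcKO arrays, 9.13 and 9.61, was above that of the others, 6.20 to 6.54.

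Probes of a locus could also differ. The widest gap in dcKO was at chr2:10237649-10287591, described above, at 2.90 log2 units between 2 probes. At chr1:175653557-175672031 on strand R, 7 detected probes ran from -0.91 to 1.27, with 5 above 0, and 1 passed the adjusted p threshold (0.0319). At chr17:56687541-56694631 on strand R, 9 detected probes ran from -0.18 to 1.90 and 2 were called, with ratios of 1.61 and 1.94 (A_30_P01026224) and 1.78 and 2.03 (A_30_P01018472). In the chr5 R locus 8 of 9 detected probes were above 0, and the range ran from -0.02 to 2.12.

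Intervals on opposite strands were compared last. There were 1139 pairs of overlapping loci on strands F and R, of which 760 had identical coordinates. Both strands were detected in 356 pairs in Sox4 cKO, 378 in Sox11 cKO and 363 in dcKO. The locus medians of the strands correlated at 0.059, 0.156 and 0.187 in the 3 genotypes, and had the same sign in 180, 215 and 192 pairs. Of the called dcKO loci, the chr5:137392195-137426421 interval had a median of 2.13 on strand F (7 probes) and 0.13 on strand R (3 probes). The chr5:22801058-22939737 interval had 1.92 on strand R and 0.16 on strand F (2 probes). At chr6, the R locus chr6:31017987-31174287 was at 0.47 against 1.82 on F. At chr17:56687541-56694631 both strands held a called probe: A_30_P01024051 on strand F had ratios of 1.16 and 2.04 (log2 fold change 1.60, limma adjusted p = 0.018), but the medians of the strands were 0.17 on F and 0.88 on R. In Sox4 cKO the chr16:90038086-90127636 interval was at 1.64 on strand F and 0.12 on strand R (6 probes).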

How the data were processed

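Total RNA (25 ng) was amplified and labelled with Cy3 and Cy5 by the authors and hybridised to Agilent mouse arrays of 62976 spots. The deposited scanner files hold median spot and background intensity values on a linear scale, extracted with Agilent Feature Extraction 11.0.1.1 and not normalised, and processed intensity values, from which per the file headers the software had taken off background and dye bias. A deposited table holds log2 ratios made by the authors with normexp, loess and a dye correction. Its column medians lay between -0.00664 and 0.00452, and each column followed knockout over wild type of its own array (correlation 0.89 to 0.952).

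In R 4.3.3 with limma 3.58.1, median signals were background corrected (normexp, offset 16), loess normalised within arrays and averaged per probe, after leaving out 3671 control spots and 194 to 288 outlier spots per array (0 saturated). A model with 3 genotype effects and a dye term was fitted over 6 arrays (lmFit, eBayes; 2 residual and 5.37 prior degrees of freedom). The same model gave the differences between genotypes. Where an array value was missing, as for 9 detected interval probes, the fit used the other arrays. SE values are those of the model. Channel levels were quantile normalised on array averages.

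The dye term equals a block on the replicate number, since dyes followed it. Deviations of same-numbered arrays from their genotype means correlated at 0.316, 0.244 and 0.125 over all probes. Since dyes followed the numbers, a dye effect and a pairing of arrays cannot be told apart by these values. The term was kept in the model for either. All arrays came from 1 slide and 1 scan. The number of arrays limits the precision. Named loci were the called ones, the most uniform, the widest gaps, opposite strands and threshold neighbours, chromosome 18 aside. The members and lists were chosen with earlier results of these data known. Names of RefSeq probes came from a GRCm38.p6 table (28331 of 29786 matched). Alternatives were an offset of 50, processed signals, median centring, the authors' log2 ratios, no dye term, a detection filter, other grouping and detection rules, and leaving out arrays. The model was tested on simulated data.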

Additional observations from a re-analysis of the deposited data

Results flagged for a closer look

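Of the 15 loci called in dcKO, 4 held a probe whose dcKO ratio differed from both single knockouts by limma's test of the difference itself, and 1 probe per locus is given. The differences are between ratios, and the levels of both channels are given beside them. Probe A_30_P01031155 at chr6:31170350-31287353 on strand F had a ratio 3.01 log2 units higher in dcKO than in Sox4 cKO. Its knockout level was 10.28 and 9.80 in dcKO against 8.04 and 8.32 in Sox4 cKO, and its wild-type level was 7.86 and 7.10 against 8.61 and 8.66. Probe A_30_P01023875 at chr5:137392195-137426421 on strand F had a ratio 2.27 higher than in Sox4 cKO, with a knockout level of 7.98 and 9.21 in dcKO against 9.34 and 9.45 in Sox4 cKO, and a wild-type level of 6.11 and 6.21 against 9.59 and 8.87. Probe A_30_P01022913 at chr4:56480568-56658018 on strand R had a ratio 2.12 higher than in Sox4 cKO (limma adjusted p = 0.0169) and 1.80 higher than in Sox11 cKO (limma adjusted p = 0.0291). Its knockout level was 8.23 and 8.55 in dcKO against 7.93 and 7.69 in Sox4 cKO, and its wild-type level was 6.30 and 7.34 against 8.17 and 8.55. Probe A_30_P01027687 at chr6:40699474-40719122 on strand F had a ratio 1.52 higher than in Sox4 cKO (limma adjusted p = 0.029) and 1.91 higher than in Sox11 cKO (limma adjusted p = 0.0167). Its knockout level was 7.33 and 7.28 in dcKO against 7.42 and 7.11 in Sox4 cKO, and its wild-type level was 5.73 and 5.82 against 7.35 and 7.16.

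Only the loci named as most uniform were checked for opposite sides in the single knockouts, not all loci. At 2 of these every detected probe stood on one side of 0 on both Sox4 cKO arrays and on the other on both Sox11 cKO arrays. The difference was not tested. At chr4:88745770-88774130 on strand R the median log2 fold change was 0.79 in Sox4 cKO and -2.19 in Sox11 cKO (3 probes). At chr9:68349343-68411643 on strand F it was -0.18 in Sox4 cKO and 0.53 in Sox11 cKO (2 probes).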

How the results depend on the processing

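Counts of called interval probes are given in the order Sox4 cKO, Sox11 cKO, dcKO, dcKO minus Sox4 cKO and dcKO minus Sox11 cKO, and were 8, 1, 32, 20 and 22. They were 0, 0, 8, 0 and 0 with an offset of 50 and 0 in all with Feature Extraction's processed signals (limma). With those signals, 840, 760, 1406, 1321 and 1113 of 16181 interval probes had an unadjusted limma p below 0.05. Median centring gave 9, 1, 27, 48 and 35, of which 19 of the 27 were among the 32 in dcKO, and it moved the median of detected probes in dcKO from -0.03 to -0.39. It split the differences into 15 higher and 33 lower for dcKO minus Sox4 cKO and 22 higher and 13 lower for dcKO minus Sox11 cKO. The authors' log2 ratios gave 11, 9, 37, 47 and 59, with all 32 called in dcKO. A filter to detected probes gave 5, 0, 29, 12 and 10, and the 2 arrays of a genotype alone gave 14, 0 and 36. Without the replicate block (no dye term), the counts were 6, 1, 24, 5 and 5, so that only the counts for the differences between genotypes moved by over 1.5 times. Over all 55681 probes, in the same order, the main fit called 79, 48, 421, 313 and 250. Median centring called 110, 60, 720, 1118 and 827 of them, and the authors' log2 ratios 137, 129, 502, 664 and 622. An offset of 50 called 3, 0, 78, 0 and 0 over all probes, and the processed signals 0 in all.

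Leaving out 1 array at a time gave 0 to 14, 2 to 42, 6 to 39, 0 to 60 and 0 to 133, where the lone array of a genotype is assumed to vary like the others. The highest counts for dcKO minus Sox4 cKO and dcKO minus Sox11 cKO came without a Sox11 cKO array, and the lowest without a Sox4 cKO array and without dcKO replicate 2. Counts over all probes moved under these settings too, and the cause of these changes was not tested. No probe called in Sox4 cKO, Sox11 cKO or dcKO over wild type reversed its direction under any of these settings. Several settings could not reverse it, since they left the fitted log2 fold change unchanged. These were no dye term, the detection filter, and arrays of other genotypes left out.

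Detected loci stayed within 1.5 times of the counts given under every rule tried. The share of loci whose probes had the same sign was 55.1%, 52.3% and 59% in Sox4 cKO, Sox11 cKO and dcKO when only identical intervals were grouped, and 70.5% in dcKO with median centring. Signal over background limits the data, as 12346 of 16181 interval probes were detected in no genotype.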
